A study of Mus musculus with 7 samples.

Results

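Retinoic acid metabolism and response were described in damaged mouse utricles through 9 genes, listed by name from the retinoid pathway, which takes part in zoning the vestibular epithelium: Cyp26b1, Aldh1a1, Aldh1a2, Aldh1a3, Rarb, Crabp1, Crabp2, Dhrs3 and Stra6. All 9 were among the 32285 genes of the count files, and 8 passed the filter on low counts that left 17155 genes for testing. Crabp1 did not pass it. The libraries were made from utricles of wild-type postnatal day 2 mice (P2; C57BL/6J in the study's methods), which were cultured as explants and damaged with gentamicin, an aminoglycoside that kills hair cells. Each library pooled 12 utricles.

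The 4 Gent+Fos OE libraries came from gentamicin-treated utricles given AAV-PHP.eB carrying Fos, and the 3 Gent libraries from gentamicin-treated controls. Both groups were therefore injured, with 2 mM gentamicin for 24 h, and were collected 5 days after injury, and the virus was applied for 48 h. No undamaged utricle was compared. The study's methods drive Fos from the CMV promoter, which is active in many cell types, so the added Fos was not restricted to supporting cells by its promoter. The labels name no virus for the Gent group, while the study's text and legends describe the controls of such overexpression experiments as given a control AAV with EGFP. If these 3 libraries had no virus, the added Fos and the virus itself cannot be told apart.

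Retinoic acid is a small signal made from vitamin A. Retinol enters cells partly through STRA6, is oxidized to retinal by retinol dehydrogenases, a step that DHRS3 runs in reverse, and retinal is oxidized irreversibly to retinoic acid by ALDH1A1, ALDH1A2 and ALDH1A3. Retinoic acid is carried to nuclear receptors (RAR with RXR) by CRABP2, is bound and channelled to breakdown by CRABP1, and is degraded by CYP26 enzymes. In the developing utricle CYP26B1 lowers retinoic acid in the striola, the central zone where hair cell orientation reverses, while ALDH1A3 makes it in the surrounding extrastriola. Rarb, Dhrs3 and Cyp26a1 are known direct targets of retinoic acid, so their RNA is often read as a sign of its level.

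The start-site windows of 5 retinoid genes are shown because they carry, or lack, the 2 kinds of element that the comparison bears on. The first is the retinoic acid response element, a pair of half-sites read in the same direction, and the second is the site of AP-1, the complex that Fos enters. Each window runs from 250 bases before to 50 bases after a RefSeq start site on GRCm38.p6, the reference that the mm10 build of the files is drawn from. The half-site was taken as AGGTCA with 3 variants, the first AGTTCA, the second GGGTCA and the third GGTTCA. The AP-1 site was searched as TGANTCA, and both strands were read. Capitals mark a match, and windows without capitals hold none. No printed match overlapped another kind of match.
Rarb, chr14:16575427-16575726, minus strand: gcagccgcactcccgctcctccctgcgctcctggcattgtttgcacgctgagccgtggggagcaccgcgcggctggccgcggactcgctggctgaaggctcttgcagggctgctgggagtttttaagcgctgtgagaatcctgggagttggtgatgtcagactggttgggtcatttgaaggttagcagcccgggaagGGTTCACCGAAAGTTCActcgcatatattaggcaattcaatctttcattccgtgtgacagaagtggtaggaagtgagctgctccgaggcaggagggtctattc
Cyp26a1, chr19:37697558-37697857, plus strand: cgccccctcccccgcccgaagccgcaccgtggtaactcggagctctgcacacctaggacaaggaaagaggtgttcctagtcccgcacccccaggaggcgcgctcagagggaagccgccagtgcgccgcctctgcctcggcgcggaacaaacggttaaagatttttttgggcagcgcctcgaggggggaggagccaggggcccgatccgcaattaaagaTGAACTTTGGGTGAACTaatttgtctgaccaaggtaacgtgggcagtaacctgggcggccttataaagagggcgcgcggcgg
Aldh1a1, chr19:20492333-20492632, plus strand: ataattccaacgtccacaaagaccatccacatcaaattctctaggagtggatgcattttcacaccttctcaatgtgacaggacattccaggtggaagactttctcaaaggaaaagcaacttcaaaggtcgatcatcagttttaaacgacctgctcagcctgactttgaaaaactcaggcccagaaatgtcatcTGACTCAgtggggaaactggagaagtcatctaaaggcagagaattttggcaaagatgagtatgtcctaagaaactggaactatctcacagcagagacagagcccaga
Cyp26b1, chr6:84593761-84594060, minus strand: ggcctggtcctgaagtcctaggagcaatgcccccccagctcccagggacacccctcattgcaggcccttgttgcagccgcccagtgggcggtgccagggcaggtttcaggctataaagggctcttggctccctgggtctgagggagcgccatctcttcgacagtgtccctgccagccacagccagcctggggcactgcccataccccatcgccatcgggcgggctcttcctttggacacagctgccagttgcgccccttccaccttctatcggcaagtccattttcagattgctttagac
Dhrs3, chr4:144892577-144892876, plus strand: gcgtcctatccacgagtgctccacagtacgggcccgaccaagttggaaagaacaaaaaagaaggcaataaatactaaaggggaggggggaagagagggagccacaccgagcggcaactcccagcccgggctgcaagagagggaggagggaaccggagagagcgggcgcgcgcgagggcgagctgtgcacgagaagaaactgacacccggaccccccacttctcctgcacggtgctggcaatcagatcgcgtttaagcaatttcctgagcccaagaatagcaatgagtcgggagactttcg
Half-sites spaced by 5 bases were found in the Rarb window, with the first base at -53 from the start site, and in the Cyp26a1 window, at -32 and on the opposite strand. Of all 32851 windows, 0.0974% held such a repeat. The AP-1 site in the Aldh1a1 window began at -57, and 7.81% of all windows held one. Windows were found for 7 of the 9 genes (not for Aldh1a3 or Crabp2), and Rarb and Aldh1a1 were the 2 that held a match. The Rarb start site of this window lies 243680 bases inside the gene model used for counting, so counts over the whole gene did not separate the RNA that starts there. No binding was measured in these libraries, and a match is a description of letters.

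Library depth and identity were checked before the retinoid genes were compared. The 7 libraries held 27879889 to 34335214 counts. Levels are given as CPM, a gene's counts relative to the TMM-scaled total of its library, as mean ± SD. Fos itself, the check of the labels, reached 154 ± 8.46 (n = 4) against 38.2 ± 3.18 (n = 3) in the controls, and it was called higher (log2 fold change 2.01, SE 0.13; edgeR quasi-likelihood test, adjusted p = 0.000142). The hair cell, supporting cell and mesenchyme marker lists were detected in every library, with summed levels of 667 to 965 CPM, 1390 to 2640 CPM and 8920 to 14900 CPM. A control library, Gent replicate 2, stood apart: its log2 level of each gene, relative to the mean of the 7 libraries, was lower for longer genes (Spearman rho -0.4964 across genes, a description since genes share these libraries, with 4084 bases of exon in the median tested gene). The same rho was -0.2213 in Gent replicate 3 and 0.1532 in Gent replicate 1, and it was positive in all 4 Gent+Fos OE libraries (0.1242 to 0.325), so the length trend ran partly with the groups. Nothing in the labels says that the libraries came from separate litters, so p-values measure the spread between libraries. In pooled tissue, fewer cells of a type and less RNA per cell cannot be told apart.

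None of the 8 tested retinoid genes was called. A gene was called at an adjusted p under 0.01 (Benjamini-Hochberg over all genes tested) with an absolute log2 fold change over 0.25, and 71 genes or 0.414% of those tested were called in all, 23 higher and 48 lower in Gent+Fos OE. At an adjusted p limit of 0.05, which 1.86% of tested genes passed, the count among the 8 was still 0. DESeq2 called 3.17% of the 18927 genes to which it gave an adjusted p, and again 0 of these genes. Fold changes were positive for 4 of the 8 and negative for the other 4, with a median log2 fold change of 0.05 against a median of 0.00 over all genes tested. At an unadjusted p under 0.05, 1 gene was higher (Cyp26b1) and 1 was lower (Dhrs3), beside 11.1% and 13.4% of all tested genes. The groups did not overlap for 1 gene, Dhrs3, which was lower, whereas 12.2% of tested genes were lower and 11.3% higher without overlap.

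**Figure D1:**
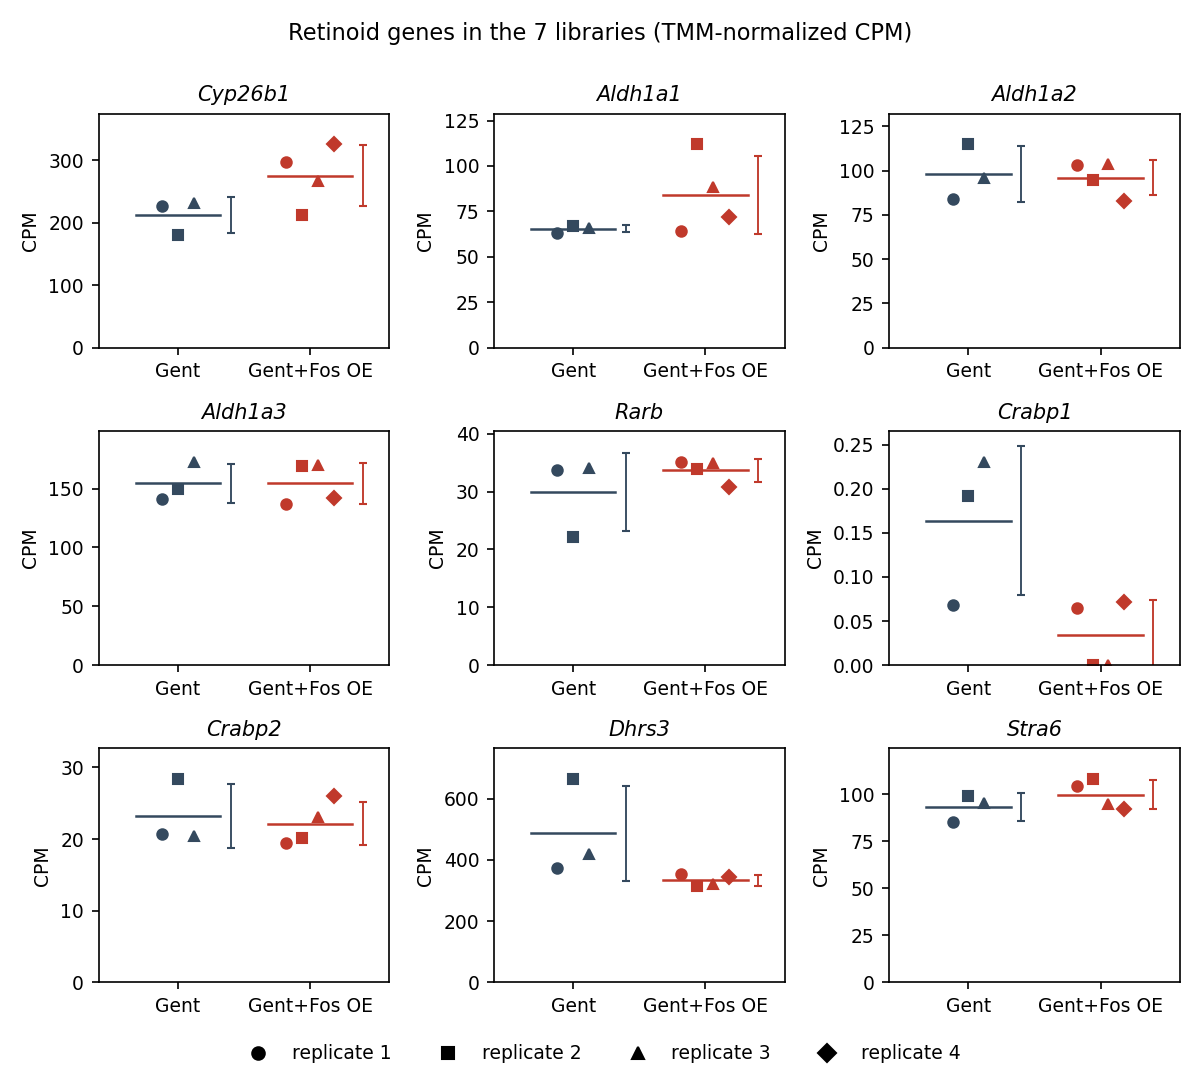
Level of each of the 9 retinoid genes in every library, as TMM-normalized CPM (linear axes from 0), with 1 point a library, a horizontal line at the group mean and a bar of 1 SD beside it; the shape marks the replicate number. Dhrs3 is the 1 tested gene whose groups do not overlap, with Gent replicate 2 at 664 CPM far above the other libraries, and Cyp26b1 is mostly higher in Gent+Fos OE with an overlap.

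Vitamin A supply was read from Stra6 and Dhrs3. Stra6 (ENSMUSG00000032327, chr9:58063788-58153996, plus strand), the membrane receptor that takes up retinol from its carrier in blood, stood at 104, 108, 94.6 and 92.3 CPM in Gent+Fos OE replicates 1 to 4. The Gent libraries stood at 85.0, 99.2 and 95.1 CPM, inside or just under that range. Its log2 fold change was 0.10 (95% interval -0.17 to 0.37, edgeR, adjusted p = 0.621), which leaves folds from 0.891 to 1.29 possible.

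Dhrs3 (ENSMUSG00000066026, chr4:144892827-144928209, plus strand), the reductase that turns retinal back into retinol, had the lowest p of the 9. Its levels were 353, 315, 320 and 345 CPM in Gent+Fos OE replicates 1 to 4 and 374, 664 and 420 CPM in Gent replicates 1 to 3. Every Gent+Fos OE library was below every Gent library, narrowly so for Gent replicate 1, and the controls were much more spread (333 ± 18.9 CPM, n = 4, against 486 ± 156 CPM, n = 3). The log2 fold change was -0.54 (SE 0.18, 95% interval -0.95 to -0.14), a level 0.686 times that of Gent, with an unadjusted p of 0.0135 and an adjusted p of 0.131 in edgeR. The two-sided exact permutation test of log2(CPM + 0.5) gave p = 0.0286, the smallest that the 35 divisions of 7 libraries into 4 and 3 allow. Without Gent replicate 2 the log2 fold change was -0.26 (edgeR, adjusted p = 0.172), and without Gent replicate 1 it was -0.70 (edgeR, adjusted p = 0.0413). With the length correction it was -0.45 (edgeR, adjusted p = 0.115). Over all 15 alternatives it stayed negative, from -0.70 to -0.26, with an adjusted p of 0.0413 to 0.276, and it was called in none of them.

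None of the 3 retinaldehyde dehydrogenases, which make retinoic acid, passed the test. Aldh1a1 (ENSMUSG00000053279, chr19:20492715-20643465, plus strand) was at 64.1, 112, 88.2 and 71.7 CPM in Gent+Fos OE replicates 1 to 4 and at 63.3, 67.2 and 65.9 CPM in Gent. Gent+Fos OE replicates 2, 3 and 4 lay above every control and replicate 1 lay among them, so the groups overlapped. The log2 fold change was 0.36 (SE 0.18, 95% interval -0.04 to 0.76, edgeR, unadjusted p = 0.0742, adjusted p = 0.243), and it was positive in all 15 alternatives (0.19 to 0.46), the lowest being without Gent+Fos OE replicate 2.

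Aldh1a2 (ENSMUSG00000013584, chr9:71215789-71296243, plus strand), the main retinoic acid source in much of the embryo's mesenchyme, was at 103, 94.8, 104 and 82.7 CPM in Gent+Fos OE and at 84.0, 115 and 95.6 CPM in Gent. The controls spanned nearly the whole range of the other group and beyond it. Its log2 fold change was -0.03 (95% interval -0.35 to 0.29, edgeR, adjusted p = 0.908), and the sign turned to 0.10 with a correction for gene length.

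Aldh1a3 (ENSMUSG00000015134, chr7:66390890-66427517, minus strand), the extrastriolar enzyme, was at 137, 169, 170 and 142 CPM in Gent+Fos OE and at 141, 150 and 173 CPM in Gent. The group means were 154 ± 17.2 (n = 4) and 155 ± 16.5 CPM (n = 3), within the spread of either. Between groups the log2 difference was -0.002 (95% interval -0.30 to 0.30, edgeR, adjusted p = 0.995). Scaled by exonic length, the 3 dehydrogenases summed to 92.9 ± 9.51 CPM per kb in Gent+Fos OE (n = 4) and 90.1 ± 8.68 CPM per kb in Gent (n = 3), with overlapping libraries.

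Cyp26b1 (ENSMUSG00000063415, chr6:84571414-84593908, minus strand), the striolar enzyme that destroys retinoic acid, was at 298, 212, 267 and 326 CPM in Gent+Fos OE replicates 1 to 4 and at 227, 180 and 231 CPM in Gent replicates 1 to 3. Replicates 1, 3 and 4 of Gent+Fos OE lay above every control, while replicate 2 lay between the controls. On the log2 scale the fold change was 0.38 (SE 0.17, 95% interval 0.01 to 0.74, edgeR, unadjusted p = 0.0462, adjusted p = 0.198), and the exact permutation test gave p = 0.114. It was positive in all 15 alternatives, from 0.20 to 0.48, with an adjusted p of 0.145 to 0.395. The value was 0.26 without Gent replicate 2, 0.28 without Gent+Fos OE replicate 4 and 0.20 with a replicate block and a length correction. The ratio of Cyp26b1 to the 3 dehydrogenases together, per kb, was 0.632, 0.392, 0.496 and 0.745 in Gent+Fos OE and 0.527, 0.346 and 0.465 in Gent. These ratios overlapped, at 0.566 ± 0.154 (n = 4) and 0.446 ± 0.0922 (n = 3).

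Binding proteins for retinoic acid were either moderate or nearly absent. Crabp2 (ENSMUSG00000004885, chr3:87948666-87953376, plus strand), which delivers retinoic acid to its receptors, was at 19.5, 20.1, 23.1 and 26.0 CPM in Gent+Fos OE and at 20.7, 28.4 and 20.5 CPM in Gent. The highest library was Gent replicate 2 and the groups overlapped (log2 fold change -0.07, 95% interval -0.43 to 0.30, edgeR, adjusted p = 0.825). The sign turned to 0.10 with the length correction and also without Gent replicate 2. Crabp1 (ENSMUSG00000032291, chr9:54764748-54773110, plus strand) had 2, 0, 0 and 2 counts in Gent+Fos OE and 2, 6 and 8 counts in Gent. Taking 3 counts as the upper limit that a count of 0 allows, which covers counting error only, all 4 Gent+Fos OE libraries and Gent replicate 1 were below that limit, which corresponds to 0.0867 to 0.107 CPM over the 7 libraries. No fold was therefore given for it.

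Rarb (ENSMUSG00000017491, chr14:16430839-16819156, minus strand), the retinoic acid receptor whose own promoter carries the repeat shown above, was at 35.2, 33.9, 34.9 and 30.8 CPM in Gent+Fos OE and at 33.8, 22.2 and 34 CPM in Gent. Gent replicate 2 was the low library, and the other 6 lay between 30.8 and 35.2 CPM. Its log2 fold change was 0.17 (95% interval -0.19 to 0.53, edgeR, adjusted p = 0.538), and it was -0.01 without Gent replicate 2. Of the exonic bases of Rarb, 38.4% overlap other gene models, Top2b among them. The counting command names no strand and no overlap option, and by the counter's default reads that touch more than 1 gene are left uncounted.

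**Figure D2:**
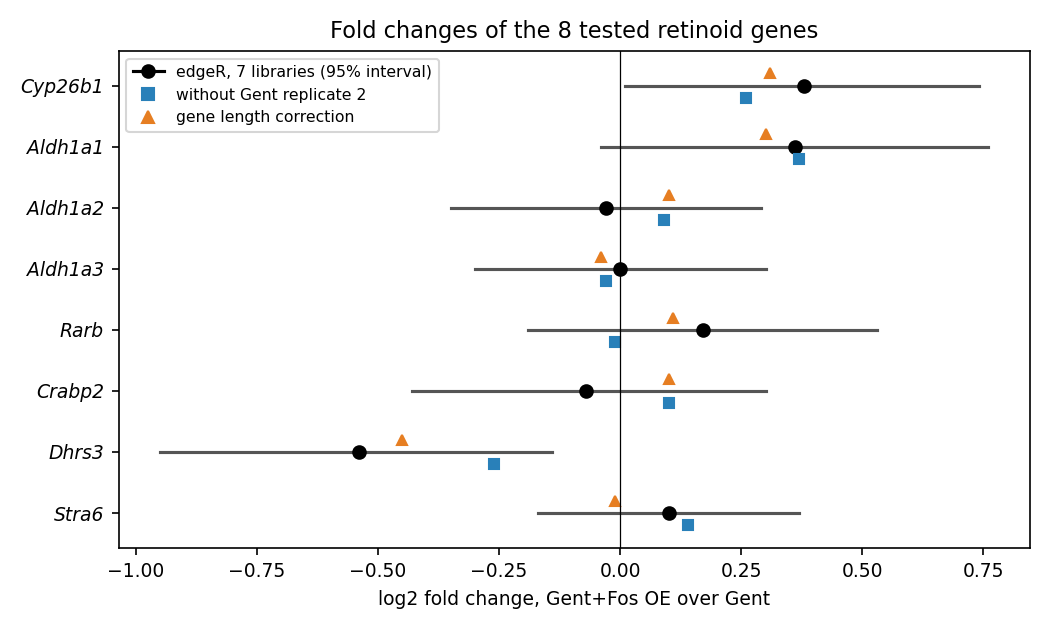
Log2 fold change of the 8 tested retinoid genes, Gent+Fos OE over Gent, with black points and lines for edgeR on 7 libraries and its 95% interval, blue squares for the fit without Gent replicate 2 and orange triangles for the fit with a gene length correction. The intervals of Cyp26b1 (0.01 to 0.74) and Dhrs3 (-0.95 to -0.14) leave out 0 before adjustment, and the Dhrs3 value moves from -0.54 to -0.26 without Gent replicate 2.

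The order of the levels per kb of exon was led by Dhrs3 in both groups, at 114 ± 6.44 CPM per kb in Gent+Fos OE (n = 4) and 166 ± 53.2 CPM per kb in Gent (n = 3). Cyp26b1 followed in Gent+Fos OE at 51.5 ± 9.12, then Aldh1a2 at 42.5 ± 4.36 and Aldh1a3 at 33.5 ± 3.73 CPM per kb, each overlapping the next in its libraries. In Gent, Aldh1a2 (43.4 ± 6.93), Cyp26b1 (39.7 ± 5.36) and Aldh1a3 (33.5 ± 3.57 CPM per kb) also overlapped their neighbours, and Cyp26b1 and Aldh1a2 changed places. Neither order among these 3 genes was clear of the spread. Stra6, Aldh1a1 and Crabp2 formed a lower step of 16.8 to 17.1 CPM per kb in Gent+Fos OE and could not be separated there. In Gent, Crabp2 (17.6 ± 3.41) and Stra6 (16.0 ± 1.25 CPM per kb) overlapped and Aldh1a1 (13.3 ± 0.408 CPM per kb) lay below both. Rarb came next at 6.40 ± 0.387 and 5.70 ± 1.28 CPM per kb, and Crabp1 was last at 0.0425 ± 0.0492 and 0.204 ± 0.106 CPM per kb. RNA of the degrading, the synthesizing and the retinal-reducing enzymes was thus present side by side in the same pools, which hold all zones and the tissue below the epithelium.

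**Figure D3:**
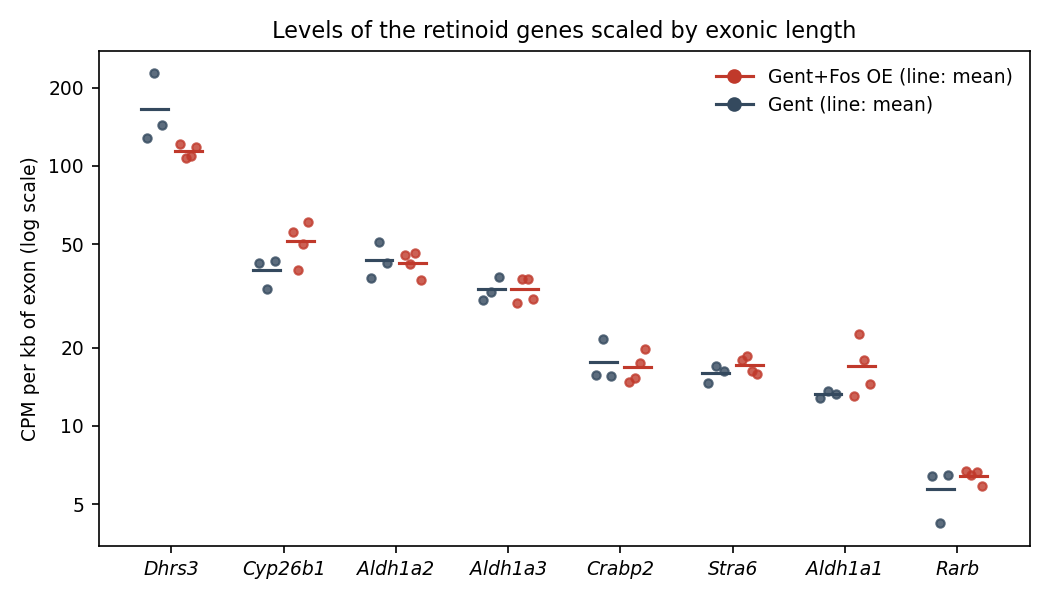
Levels of 8 retinoid genes in CPM per kb of exon on a log axis, with 1 point a library and a line at each group's mean; Crabp1, at 0.0425 and 0.204 CPM per kb, is left out. Dhrs3 stands above all others, Cyp26b1, Aldh1a2 and Aldh1a3 form a middle step with overlapping libraries, and Rarb is the lowest drawn.

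The genes whose log2(CPM + 0.5) was most like that of Cyp26b1 over the 7 libraries, of 16035 tested genes with a symbol, were Gm29811 (Pearson r = 0.984), Zfp141 (0.976), B230307C23Rik (0.965), Fbxo9 (0.964) and Serpind1 (0.964). For Dhrs3 they were Snap47, Fbxl6 and Mapk3 (0.996 each), Zfp511 and Rab1b (0.995 each). With 7 libraries and so many genes such values are a description. No retinoid gene was among the 5 nearest of either. The 5 neighbours of Dhrs3 had 2170 to 2651 bases of exon, below the median of tested genes, and their highest library, like that of Dhrs3, was Gent replicate 2.

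The other genes of the pathway came from 6 lists with 77 genes, of which 58 were tested. None was called by edgeR, while DESeq2 called 3 of the 69 that it tested, Meis1 higher and Fabp5 and Tgm2 lower, beside the 3.17% that it called of all genes. In edgeR 12 were higher and 7 lower at an unadjusted p under 0.05, and 27 had positive and 31 negative fold changes, with a median log2 fold change of -0.04. The 12 and 7 became 5 and 7 with the length correction, and ranged from 7 to 16 and from 3 to 10 with 1 library left out, the lowest without Gent+Fos OE replicate 1 and the highest without Gent replicate 1. As shares of the 58, the 12 and the 7 stand beside 11.1% and 13.4% of all genes.

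Uptake and storage genes had 8 of 11 tested, with 1 higher and 2 lower at an unadjusted p under 0.05, beside 11.1% and 13.4% of all tested genes. Rbp4, which carries retinol outside cells, was at 7.13 to 17.4 CPM in Gent+Fos OE and 16.6 to 23.5 CPM in Gent (log2 fold change -0.77, SE 0.26, edgeR, adjusted p = 0.131). Lrp2, the endocytic receptor that takes up several carriers, was at 208 to 348 CPM and 131 to 221 CPM (log2 fold change 0.60, SE 0.22, edgeR, adjusted p = 0.146). With 16701 bases of exon, Lrp2 was at 0.17 on that scale with the length correction and at 0.39 without Gent replicate 2. Ces1d, a carboxylesterase able to hydrolyse retinyl esters, was at 420 ± 62.4 and 502 ± 95.1 CPM with overlap.

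Among the enzymes that interconvert retinol and retinal, 17 of 22 were tested. At an unadjusted p under 0.05, 3 were higher and 3 lower, beside 11.1% and 13.4% of all tested genes. Sdr16c5, an epithelial retinol dehydrogenase, was at 0.977, 1.04, 1.01 and 0.856 CPM in Gent+Fos OE and 0.342, 0.321 and 0.404 CPM in Gent. The groups did not overlap, at a low level (log2 fold change 1.44, SE 0.40, 95% interval 0.55 to 2.32, edgeR, adjusted p = 0.0952). Aox1, an aldehyde oxidase that accepts retinal, was at 13.5 to 24 CPM against 10.2 to 12.4 CPM (log2 fold change 0.60, SE 0.20, edgeR, adjusted p = 0.129), and its log2 fold change was 0.37 with the length correction and 0.17 with the replicate block as well. Lower values were seen for Akr1b8 (log2 fold change -0.67, SE 0.25), Adh5 (-0.35, SE 0.14) and Dhrs4 (-0.37, SE 0.18), with adjusted p of 0.148, 0.171 and 0.230 in edgeR. Dhrs4, named for its level, had an unadjusted p of 0.0651 in edgeR and was not among those counted as lower above. Akr1b8, Adh5, Dhrs4 and Dhrs3 all had their highest library in Gent replicate 2. Without it the log2 fold changes of Akr1b8, Adh5 and Dhrs4 were -0.27, -0.20 and -0.15.

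Of the other breakdown enzymes, 3 of 4 were tested and none had an unadjusted p under 0.05. Cyp26a1, the family member induced most directly by retinoic acid and the carrier of the second repeat shown above, was at 0.473 ± 0.356 CPM in Gent+Fos OE (n = 4) and 0.536 ± 0.337 CPM in Gent (n = 3), and it was picked for its promoter and not by level. Its log2 fold change of -0.18 had a 95% interval of -1.65 to 1.30 (edgeR, adjusted p = 0.888), too wide to show a difference at this level. Cyp26c1 was not tested. Cyp1b1 and Cyp2s1 are P450 enzymes that also act on retinoids. Cyp1b1 was well expressed, at 219 ± 22.9 CPM in Gent+Fos OE (n = 4) and 203 ± 37.4 CPM in Gent (n = 3), and Cyp2s1 was at 21.4 ± 3.15 and 19.6 ± 4.21 CPM. They differed by 0.11 and 0.13 on the log2 scale (edgeR, adjusted p = 0.681 for each).

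Of the receptors, Rara, Rarg, Rxra, Rxrb and Rxrg overlapped between groups, with unadjusted p of 0.14 to 0.857 in edgeR. Rarg had the highest mean of the RAR and RXR genes in CPM per kb, at 15.7 ± 0.998 in Gent+Fos OE (n = 4) and 16.8 ± 3.09 in Gent (n = 3), and its log2 fold change was -0.10 (95% interval -0.41 to 0.22; adjusted p = 0.685). Fabp5, the binding protein that passes retinoic acid to PPARD instead of RAR, was at 120, 113, 104 and 156 CPM in Gent+Fos OE and at 202, 218 and 182 CPM in Gent. All 4 values lay below all 3 controls, and leaving out any 1 library gave log2 fold changes of -0.84 to -0.64. With all 7 it was -0.71 (SE 0.15, 95% interval -1.05 to -0.37), and the edgeR adjusted p of 0.0475 missed the 0.01 limit, while DESeq2 gave an adjusted p of 0.0018. The edgeR adjusted p was over 0.05 with the replicate block (0.0778), without Gent+Fos OE replicate 1 (0.142), 2 (0.128) or 3 (0.164) and without Gent replicate 3 (0.0892). Fabp5 is also made by macrophages, whose markers are given below.

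Among receptor coregulators, 10 of 12 fold changes were positive, and the median log2 fold change was 0.45. At an unadjusted p under 0.05 in edgeR, 6 of 12 genes were higher and none was lower, beside 11.1% and 13.4% of all tested genes. The acetyltransferase Crebbp (82.2 ± 10.5 against 54.7 ± 9.65 CPM; log2 fold change 0.59, SE 0.16), the coactivator Ncoa1 (0.64, SE 0.19), the corepressor Ncor1 (0.56, SE 0.21) and the orphan receptor Nr2f2 (0.37, SE 0.14) did not overlap between groups. Their adjusted p in edgeR were 0.0834, 0.108, 0.152 and 0.162. Of all tested genes, 11.3% were higher without overlap. Coactivators and corepressors were on the same side. All but 1 of the 12 genes have more exon than the median gene. With the length correction 2 instead of 6 were higher at an unadjusted p under 0.05, with a median of 0.19, and the share of all genes was not taken for that fit. The log2 fold changes of Crebbp, Ncoa1, Ncor1 and Nr2f2 were then 0.21, 0.45, 0.25 and 0.16. Without Gent replicate 2 the list's median was 0.24, and without Gent replicate 1 it was 0.69, with 9 of 12 higher at an unadjusted p under 0.05 (16.5% of all genes in that fit) and 4 past an edgeR adjusted p limit of 0.05 (4.54% of all genes). DESeq2 and limma-voom each gave 9 of 12 higher at an unadjusted p under 0.05, beside 11.5% and 12.9% of all genes.

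Target genes were read from 21 names, 11 of which were tested. The remaining 10 were too low, 6 of them Hox genes, and Hoxb5 and Hoxd4 had no count in any library. Meis1, a homeobox partner of Hox proteins, was at 23.3, 28.8, 23.7 and 21.0 CPM in Gent+Fos OE and 14.6, 13.7 and 18.0 CPM in Gent (log2 fold change 0.65, SE 0.16, edgeR, adjusted p = 0.0699). Meis2, its relative, was at 101 to 143 CPM against 78.8 to 93.2 CPM (0.40, SE 0.15, edgeR, adjusted p = 0.149). Tgm2, a transglutaminase induced by retinoic acid in many cells, lay on the other side, at 301, 252, 293 and 336 CPM against 427, 421 and 406 CPM (log2 fold change -0.50, SE 0.13, edgeR, adjusted p = 0.0763). None of these 3 overlapped between groups, beside 11.3% higher and 12.2% lower without overlap among all tested genes. With the length correction the log2 fold changes of the long genes Meis1 and Meis2 were 0.35 and 0.05, and that of Tgm2 was -0.53. DESeq2 called Meis1 (adjusted p = 0.00749) and Tgm2 (0.00733), in opposite directions. Btg2 did not differ beyond its spread (78.0 ± 5.95 and 79.3 ± 1.08 CPM). Of the 11 tested targets, 4 were positive and 7 negative, at a median of -0.08 on the log2 scale. That median was -0.30 with DESeq2, which tested 15 and put 11 of them below 0, -0.28 with the block and length correction together and 0.02 without Gent+Fos OE replicate 1.

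**Figure D4:**
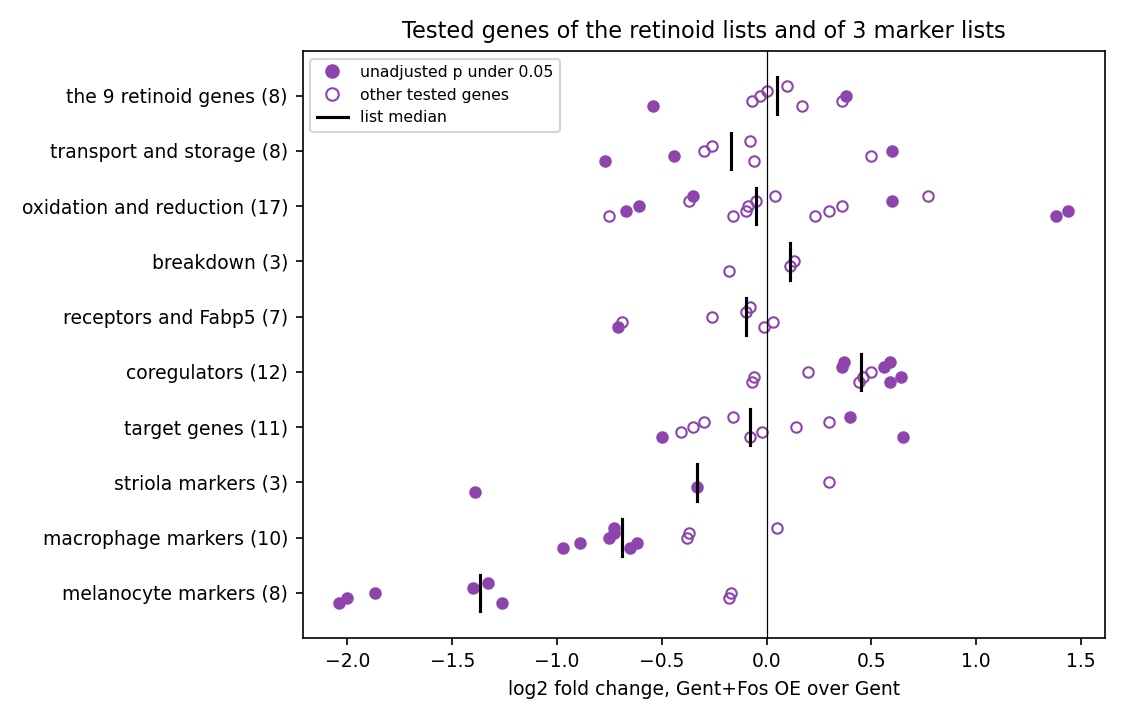
Log2 fold changes of the tested genes in the 9-gene set, in 6 further retinoid lists and in 3 marker lists, with 1 point a gene, filled where the unadjusted edgeR p is under 0.05, a black line at each list's median and the number of tested genes in parentheses. The 8 retinoid genes lie on both sides of 0 with a median of 0.05, the coregulators lie mostly to the right (0.45) and the macrophage (-0.69) and melanocyte (-1.37) markers to the left.

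The striola, the zone that Cyp26b1 marks, was looked at through a list of Tectb, Spp1, Adam11 and Ocm, of which Spp1 is not particular to it. Tectb, the beta-tectorin of the otolithic membrane over the striola, was at 39.0, 60.0, 82.3 and 50.9 CPM in Gent+Fos OE and at 151, 98.1 and 208 CPM in Gent. The groups did not overlap, and the lowest control was Gent replicate 2. The log2 fold change was -1.39 (SE 0.27, 95% interval -2.0 to -0.78, edgeR, adjusted p = 0.0348), short of the call limit. It was called without Gent replicate 2 (-1.63, edgeR, adjusted p = 0.00413), without a filter on low counts and by DESeq2. Its edgeR adjusted p was over 0.05 with the replicate block (0.079), without Gent+Fos OE replicate 1 (0.104), 2 (0.0874) or 4 (0.0758) and without Gent replicate 3 (0.103), and the log2 fold change was -1.63 to -1.10 over all 15 alternatives. Spp1, the secreted osteopontin found in type I hair cells and in other cells, was at 1300 to 1550 CPM against 1680 to 1890 CPM (log2 fold change -0.33, SE 0.12, edgeR, adjusted p = 0.146), and its log2 fold change was -0.18 with the length correction. Its means of 874 and 1100 CPM per kb were far above those of the hair cell marker Myo7a (10.9 and 10.3), and the cells it came from were not measured. Adam11, given here because it completes the list, was at 52.9 ± 4.02 CPM in Gent+Fos OE (n = 4) and 43.1 ± 8.22 CPM in Gent (n = 3), with overlap (log2 fold change 0.30, SE 0.15, edgeR, adjusted p = 0.245). The striolar hair cell marker Ocm was near 0 in both groups and was not tested. Pvalb, which the study stained in the striolar region and which is in the hair cell list here, overlapped between groups. It was at 11.7 ± 1.95 CPM in Gent+Fos OE and 6.65 ± 3.73 CPM in Gent (log2 fold change 0.81, SE 0.31, edgeR, adjusted p = 0.159). The tested striola markers thus lay on both sides of 0, Adam11 on the side of Cyp26b1, and Tectb and Spp1 on the other.

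Markers of other cell types were also read, and only the melanocyte and supporting cell lists held called genes, beside 0.414% of all tested genes. Counts at an unadjusted p under 0.05 in edgeR stand beside 11.1% higher and 13.4% lower of all tested genes. These lists were not read with the length correction or with 1 library left out, although the length trend ran partly with the groups. Of 10 macrophage markers, 9 had negative fold changes, 7 were lower at an unadjusted p under 0.05 and none was called. Their summed levels were 1040 to 1700 CPM in Gent+Fos OE and 1860 to 2280 CPM in Gent. All 8 melanocyte markers were negative and 2 were called lower, with sums of 48.9 to 53.3 CPM against 91.6 to 131 CPM. Of 9 tested supporting cell markers, 8 were positive, 4 were higher at an unadjusted p under 0.05 and 1, Otog, was called higher. The list's sums were 2050 to 2640 CPM against 1390 to 1820 CPM, of which Otog alone gave 830 to 1350 CPM against 431 to 466 CPM. Sox2, Lfng and Slc1a3 overlapped between groups, with log2 fold changes of 0.08, -0.07 and 0.01, while Jag1 did not (0.63). Of 8 Schwann cell and glia markers, 6 were negative and 4 were lower at an unadjusted p under 0.05, at a list median of -0.43 (log2 scale), and their sums overlapped at 312 to 341 CPM and 327 to 430 CPM. Of 12 hair cell markers, 3 were higher at an unadjusted p under 0.05, with a median of -0.13 and sums of 775 to 965 CPM against 667 to 844 CPM. None of these genes of glia or hair cells was called. The endothelium, neuron and roof and dark cell lists had 1 of 7, 2 of 7 and 1 of 8 genes higher at that limit and none lower. Of 12 mesenchyme markers, 2 were lower at that limit and none higher, with a median of -0.06 and overlapping sums (8920 to 14000 CPM and 11700 to 14900 CPM). No marker of the macrophage, melanocyte or supporting cell lists was at 0 in every library. The part of these marker differences in the values of Dhrs3, Cyp26b1, Fabp5 and Tectb was not tested.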

How the data were processed

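RNA sequencing of 7 libraries, each of 12 pooled utricles, was analysed from 1 raw count table per library. Per the file headers, the authors counted reads with featureCounts 2.0.6 over exons of an mm10 annotation; the labels add Trim Galore 0.6.10 and HISAT2 2.2.1. The study's methods name mm39, other versions of Trim Galore and featureCounts and 3 replicates per condition, whereas the labels give 4 and 3 libraries. The header command sets no strand option. Symbols were assigned to 24639 of 32285 genes through annotation tables.

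Counts were tested with edgeR 4.0.16 (TMM scaling, filterByExpr, quasi-likelihood test, Benjamini-Hochberg adjustment) in R 4.3.3; intervals are 95% intervals of the fit. Single genes were also tested with exact permutation tests. Alternatives were DESeq2 1.42.0, limma-voom 3.58.1, RLE scaling, other filters, a loess correction for exonic length (span 0.3), a replicate block and each library left out. The scripts were tested on simulated data. The 9 genes, the lists and the call limits were chosen with earlier results of these data known. All 9 genes are named with every library's value. Of each other retinoid list and the striola markers, the rule names every called gene, up to 4 with the lowest unadjusted p under 0.05 and the 2 with the highest CPM per kb. For Cyp26b1 and the gene with the lowest p it names the 5 nearest patterns. Of the genes it names, 2 are not reported here, though the counts over their lists include them. Promoter windows are RefSeq sequences on GRCm38.p6. No pairing of the libraries by replicate number was seen, which so few libraries cannot exclude.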

Additional observations from a re-analysis of the deposited data

Results flagged for a closer look

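Of 31 genes checked for a Gent+Fos OE library far from the other 3, 1 stood out, where chance gives about 1 in 20. Meis2 was at 143 CPM in Gent+Fos OE replicate 2 and at 101 to 108 CPM in the other 3, and its log2 fold change of 0.40 was 0.28 to 0.46 with any 1 library left out and 0.05 with the length correction. None of the 9 retinoid genes had such a library among its 4 Gent+Fos OE values. The control group of 3 libraries was not checked in this way.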

How the results depend on the processing

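None of the 8 tested retinoid genes was called under any of the 15 alternatives, and Cyp26b1, Aldh1a1 and Dhrs3 kept their direction in all of them. The counts over all genes moved. DESeq2 called 273 higher and 327 lower, no filter on low counts 63 and 141, the length correction 35 and 95, an adjusted p limit of 0.05 114 and 205, and leaving out 1 library 2 to 45 and 3 to 93. Same-numbered libraries did not deviate together (Pearson r 0.06433, -0.03802 and 0.03167), so no pairing by number was seen, though so few libraries cannot exclude one. The replicate block called 0 and 0 genes, with Fos at an adjusted p of 0.0296, and with the length correction 17 and 31. Leaving out 1 library gave, on the log2 scale, -0.13 to 0.09 for Aldh1a2, -0.07 to 0.09 for Aldh1a3, -0.01 to 0.27 for Rarb, -0.16 to 0.10 for Crabp2, -0.04 to 0.20 for Cyp1b1, -0.01 to 0.29 for Cyp2s1, -0.21 to 0.05 for Rarg and -0.07 to 0.02 for Btg2. The sign also turned with the length correction for Aldh1a2 (0.10), Crabp2 (0.10), Stra6 (-0.01) and Btg2 (0.06). With the block it turned for Aldh1a2 (0.05) and Aldh1a3 (0.03), and with both for Aldh1a2 (0.18), Crabp2 (0.05) and Btg2 (0.07). Aldh1a3 was at 0.00 with DESeq2 and 0.01 with RLE scaling. The cause was not tested. DESeq2 called Fabp5, Meis1, Tgm2 and Tectb, of which edgeR called Tectb alone, without a filter on low counts and without Gent replicate 2. Crabp1 and Cyp26c1 were too low to test, and Cyp26a1 had a wide interval.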
